A study of Mus musculus with 12 samples.

Results

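Expression of 10 genes of eicosanoid synthesis was examined in CD115+ monocytes of the spleen and the peripheral blood during liver regeneration in mice. The genes were taken by symbol, as 6 members of the prostaglandin and thromboxane branch (Ptgs1, Ptgs2, Ptges, Ptgis, Tbxas1 and Hpgds) and 4 of the leukotriene branch (Alox5, Alox5ap, Lta4h and Ltc4s), among 52553 features in all. Each of them had a row in the count tables, and each passed the low-count filter that left 20135 features for testing.

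The cells came from male C57BL/6 mice, which were either intact or had lost 70% of the liver by surgery 24 h before, with the spleen in place in both cases. There were 3 libraries in each of 4 groups, namely intact spleen, resected spleen, intact blood and resected blood, where "resected" refers to the liver. Every library was made from cells of 5 pooled mice, so p-values measure the spread between pools and not between animals. Cells were enriched on a density gradient and then with magnetic beads against CD115, the receptor encoded by Csf1r, after collagenase digestion in the case of the spleen, so the libraries hold a bead-enriched fraction and not a population sorted by several markers.

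Eicosanoids are short-lived lipid mediators made from arachidonic acid, which phospholipases release from membranes. The cyclooxygenases Ptgs1 and Ptgs2 turn it into prostaglandin H2, from which separate terminal enzymes make prostaglandin E2 (Ptges), prostacyclin (Ptgis), thromboxane A2 (Tbxas1) and prostaglandin D2 (Hpgds). In the leukotriene branch 5-lipoxygenase (Alox5), helped by its activating protein (Alox5ap), makes leukotriene A4, which becomes leukotriene B4 by Lta4h or leukotriene C4 by Ltc4s. Monocytes, macrophages, neutrophils and mast cells are known sources of these mediators.

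Ptgs2 was the only member whose response differed between blood and spleen by the edgeR test on all libraries, and it passed narrowly. Ltc4s and Hpgds differed between the tissues in opposite directions in both states. Promoter sequences of these 3 members are printed. Each is the 250 bases before the annotated start, read from RefSeq on GRCm38.p6, 5' to 3' on the strand of the gene, with capitals for letters that match a C/EBP element. The Ptgs2 sequence lies at chr1:150099781-150100030 on the plus strand, that of Hpgds at chr6:65144731-65144980 on the minus strand, and that of Ltc4s at chr11:50238533-50238782 on the minus strand.
Ptgs2: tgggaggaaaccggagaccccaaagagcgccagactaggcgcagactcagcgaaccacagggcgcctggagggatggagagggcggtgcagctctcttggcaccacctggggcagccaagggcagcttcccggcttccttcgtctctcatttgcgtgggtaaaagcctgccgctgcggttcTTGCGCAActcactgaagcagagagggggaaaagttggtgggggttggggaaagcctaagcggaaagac
Hpgds: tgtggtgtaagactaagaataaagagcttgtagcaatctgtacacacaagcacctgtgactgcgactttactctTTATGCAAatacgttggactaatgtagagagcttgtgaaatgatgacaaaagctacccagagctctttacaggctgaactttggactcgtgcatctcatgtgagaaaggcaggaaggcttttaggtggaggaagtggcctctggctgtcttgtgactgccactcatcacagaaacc
Ltc4s: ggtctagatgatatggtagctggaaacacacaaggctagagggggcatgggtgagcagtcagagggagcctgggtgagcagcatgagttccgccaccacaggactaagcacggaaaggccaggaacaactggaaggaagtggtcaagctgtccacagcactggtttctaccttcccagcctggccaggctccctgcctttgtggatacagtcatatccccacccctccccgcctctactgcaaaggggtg
Each window was searched on both strands for the letters of 7 known elements. The C/EBP letters TTGCNNAA were in 9.6% of 32851 promoters of the same length. Among the members they occurred in Ptgs2, from 69 to 62 bases before the start, and on the opposite strand in Hpgds, from 176 to 169 bases before it. E-box letters (CANNTG), held by 66.2% of all promoters, were in Ptgs2, Hpgds, Ltc4s, Ptges and Ptgs1. Tbxas1 had the TATA box letters TATAAA, found in 12.4% of promoters. It also had the AP-1 letters TGANTCA, found in 6.7%. Lta4h had 2 matches of CCAAT, found in 33.8%. None of the letters searched was in the Alox5 window. The CRE letters TGACGT (6.5% of promoters) and an NF-kB element (7.3%) were in none of the 8 windows searched. Sequence outside these 250 bases was not searched. RefSeq promoters were matched for 8 of the 10 members, and those of Ptgis and Alox5ap were not used here. A match of letters is a description of the sequence only.

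Sequencing depth ran from 36990033 to 46401368 counts per library. Haemoglobin transcripts took 13.2% to 34.2% of the counts in blood and 0.081% to 3.47% in spleen. Csf1r itself was present in all libraries, from 209 to 1192 CPM (counts scaled to sequencing depth, on TMM-scaled library sizes, the unit of level used throughout). The libraries were not pure monocyte samples. Neutrophil markers, summed over 12 genes, were at 1330 to 2430 CPM in intact spleen, 5600 to 15200 in resected spleen, 144 to 526 in intact blood and 3860 to 19900 in resected blood. Summed peritoneal macrophage markers (10 genes, Alox15 among them) were at 377 to 525, 371 to 1860, 3870 to 8480 and 20100 to 25100 CPM in the same order. The largest part of these sums was 1 gene, Fn1, at 301 to 452, 319 to 1792, 3051 to 6230 and 13800 to 19750 CPM. With resection in blood 7 of the 10 genes were called higher and 0 lower. Gata6, which defines large peritoneal macrophages, was at 2.85 to 5.86 CPM in intact blood, at 17.7 to 23.7 CPM in resected blood and at or below 0.164 CPM in every splenic library. For platelet markers (10 genes) the sums were 16.7 to 28.2, 17.8 to 36.2, 99.3 to 352 and 858 to 938 CPM. For red pulp macrophage markers they were 1580 to 2450, 3090 to 6680, 290 to 841 and 2670 to 3520 CPM. The highest of these in resected blood were Adgre1, Hmox1 and Cd5l (means of 914, 697 and 529 CPM), while Spic and Vcam1 were at 3.98 and 3.55 CPM. In a bulk library, more cells of a type and more RNA per cell cannot be told apart.

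**Figure D1:**
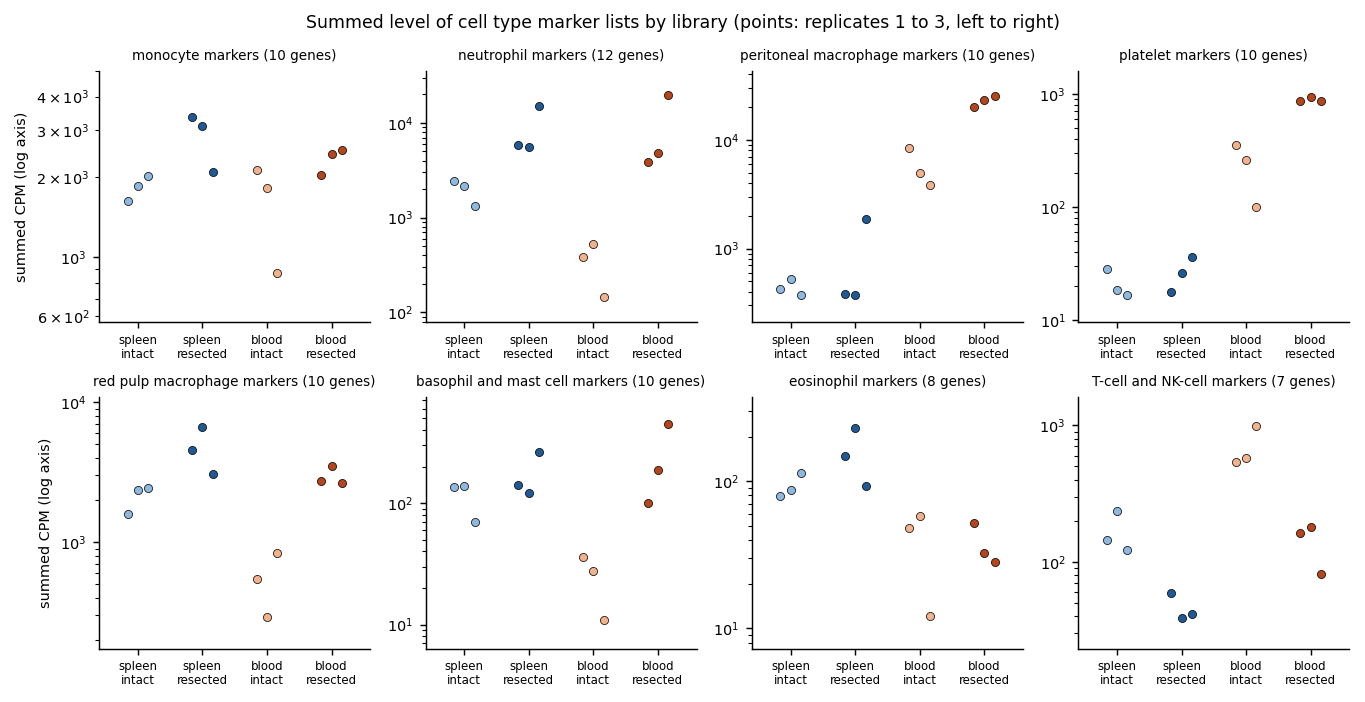
Summed CPM (vertical axis, log scale) of 8 marker lists in each library of the 4 groups, replicates 1 to 3 from left to right within a group. Neutrophil sums were higher in every resected library than in every intact one of the same tissue, and replicate 3 of both resected groups stood highest, at 15200 and 19900 CPM.

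In 3 libraries the makeup stood apart. Replicate 3 of resected spleen and of resected blood had the 2 highest neutrophil sums, against 5600 and 5840 CPM and 3860 and 4830 CPM in the other libraries of their groups. Replicate 3 of intact blood had the lowest monocyte marker sum, 872 CPM against 1810 and 2120, and the highest sum of T-cell and NK-cell markers, 981 CPM against 540 and 575. Results are therefore also given without these libraries.

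The first question was which enzymes differed in monocytes between intact and hepatectomized mice. In blood 8 of the 10 members were called higher after resection and 0 lower, 5 of 6 in the prostaglandin and thromboxane branch and 3 of 4 in the leukotriene branch. A member was called where edgeR's quasi-likelihood test gave a p-value below 0.05 after Benjamini-Hochberg adjustment together with more than 1 unit of log2 fold change in either direction, and the same rule called 13.9% of all features tested, 7.8% of them being called higher. In spleen 0 of the 10 members were called, where 1.38% of all features were. At an unadjusted p under 0.05, however, 7 members were higher in resected spleen (20.8% of all features were under 0.05 in either direction), and DESeq2 called 6 (7.87% of features). The libraries of the 2 groups did not overlap for 9 members in blood (38.4% of features) and for 5 in spleen (35.1%).

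**Figure D2:**
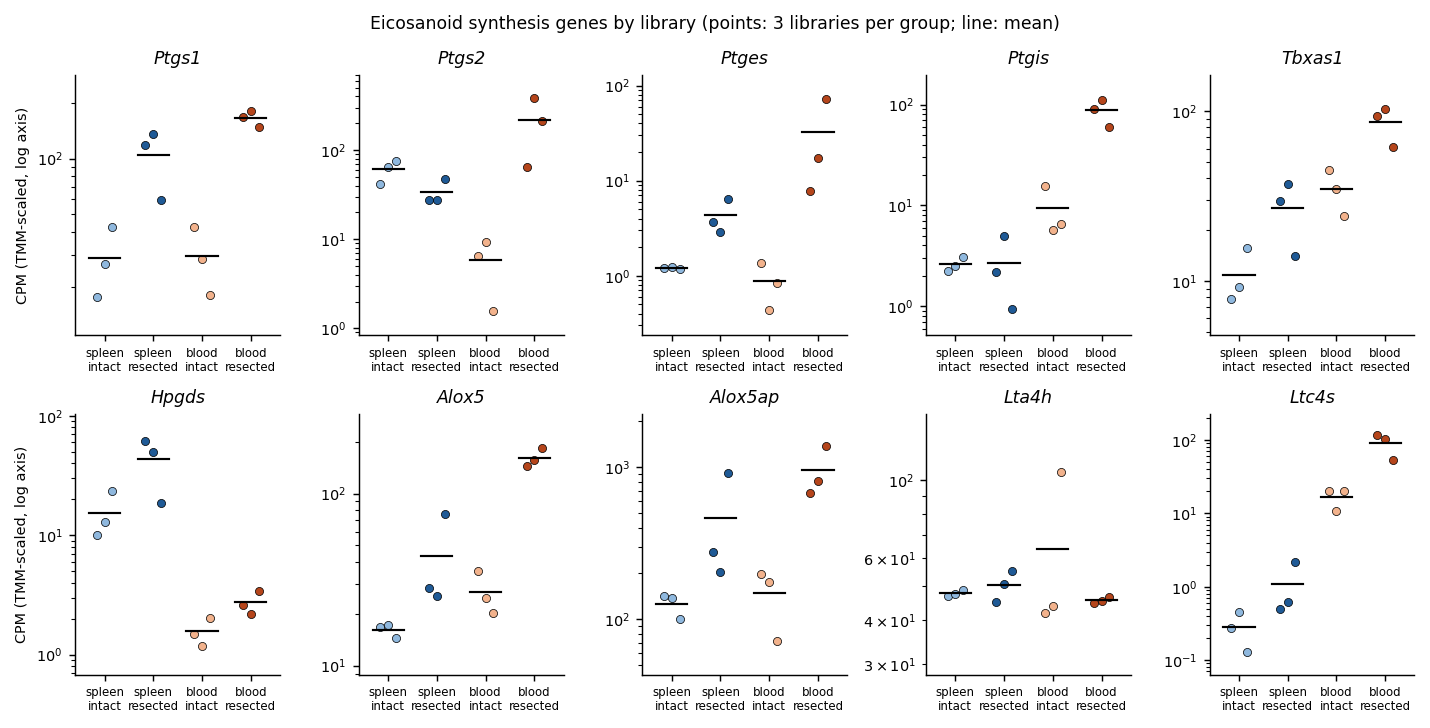
CPM (vertical axis, log scale, set separately in each panel) of the 10 members, 1 point per library and a line at the mean of the 3 libraries of a group. Resected blood lay above intact blood without overlap in every panel but that of Lta4h.

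Among the cyclooxygenases, Ptgs1, the constitutive isoform, stood at 42.4, 28.4 and 18.2 CPM in intact blood and at 168, 182 and 148 CPM in resected blood. The groups were far apart, with a log2 fold change of 2.49 (SE 0.42, adjusted p = 0.00399). In spleen Ptgs1 was at 17.6, 26.8 and 42.6 CPM before and 119, 136 and 59.5 CPM after resection. These libraries did not overlap either, and the log2 fold change of 1.85 (SE 0.41) missed the threshold at an adjusted p of 0.0518.

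Ptgs2, the inducible isoform, had the largest fitted fold change of the 10 genes in blood, next to Ptges. It was at 6.495, 9.35 and 1.57 CPM in intact blood and at 64.8, 383 and 212 CPM in resected blood. The lowest resected library was well above the highest intact one, although the resected libraries ranged widely, and the log2 fold change was 5.24 (SE 0.80, adjusted p = 0.00269), or 4.56 without replicate 2 of resected blood. In spleen the gene was at 41.3, 65.0 and 75.6 CPM in intact and at 27.9, 27.3 and 47.2 CPM in resected mice. The splenic groups overlapped, and the log2 fold change was −0.83 (SE 0.67, adjusted p = 0.523, 95% interval −2.31 to 0.66). The test of the difference between both responses gave a log2 value of 6.07 (SE 1.02, adjusted p = 0.047). Of the members edgeR called Ptgs2 alone in that test, which called 0.283% of all features. The call is narrow: without 1 library it was kept only when replicate 1 of resected blood or replicate 3 of intact blood was left out, while the difference itself stayed between 5.399 and 6.61.

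The ratio of Ptgs2 to Ptgs1 counts within a library changed with resection in opposite directions. It was 2.34, 2.42 and 1.78 in intact spleen and 0.235, 0.201 and 0.793 in resected spleen. In blood it was 0.153, 0.329 and 0.0866 before resection and 0.386, 2.11 and 1.43 after. The groups did not overlap in either tissue.

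**Figure D3:**
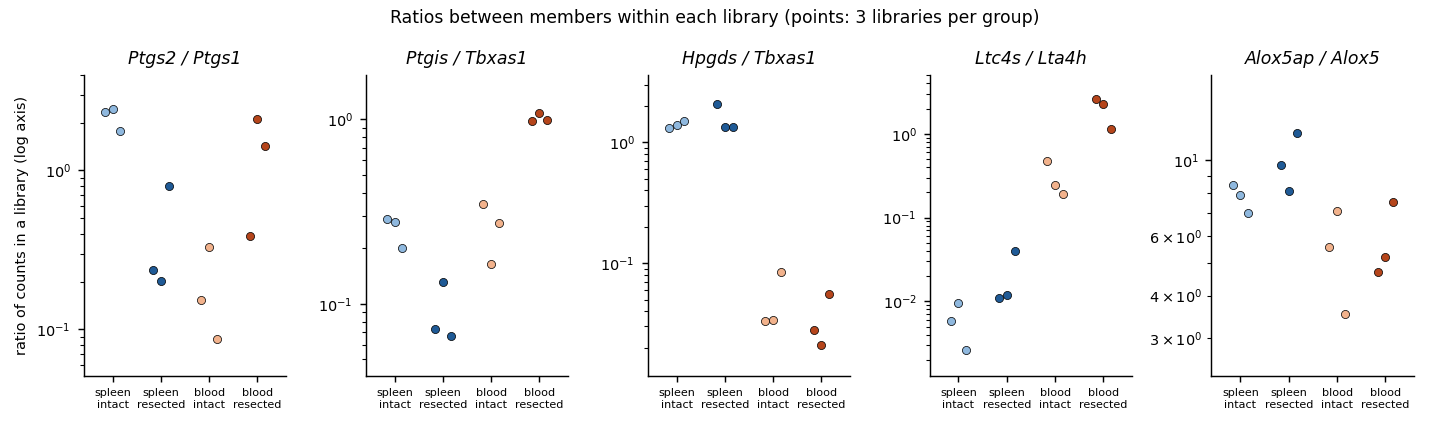
Ratios of counts between pairs of members within each library (vertical axes, log scale), 3 points per group. Ptgs2 / Ptgs1 was lower after resection in spleen and higher in blood, and Ltc4s / Lta4h was above 0.18 in every blood library and below 0.04 in every splenic one.

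Of the terminal prostanoid synthases, Ptges, the inducible prostaglandin E synthase, was scarce in intact mice, at 1.38, 0.437 and 0.830 CPM in blood. It reached 7.78, 17.1 and 72.3 CPM in resected blood, a log2 fold change of 5.20 (SE 0.85, adjusted p = 0.00341), and its highest value fell in replicate 3, the library with the highest neutrophil sum. Without that library the log2 fold change was 3.84, which was still called. In spleen it was at 1.19 to 1.23 CPM in intact mice and at 3.69, 2.86 and 6.49 CPM after resection, without overlap and without a call (log2 fold change 1.84, SE 0.74, adjusted p = 0.191).

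Ptgis, the prostacyclin synthase, was at 15.6, 5.75 and 6.58 CPM in intact blood and at 90.8, 112 and 60.1 CPM in resected blood. Its log2 fold change was 3.23 (SE 0.59, adjusted p = 0.00522), or 3.88 without replicate 1 of intact blood. In spleen it did not pass the test, at 2.25, 2.53 and 3.11 CPM before and 2.17, 4.91 and 0.934 CPM after resection (log2 fold change 0.03, SE 0.56, adjusted p = 0.99, 95% interval −1.21 to 1.27). The difference between the tissues was 3.21 (SE 0.79) and was not called (adjusted p = 0.126), and that of Ptges, 3.36 (SE 1.04), was not called either (adjusted p = 0.179). DESeq2 called both (adjusted p = 0.0024 and 0.0201). The summed peritoneal macrophage markers were higher in the same blood libraries, and their part in the Ptgis result was not tested.

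Tbxas1, the thromboxane synthase, was higher by a similar ratio in both tissues. It was at 45.0, 34.9 and 23.9 CPM in intact blood and at 92.9, 103 and 60.9 CPM in resected blood, with a log2 fold change of 1.30 (SE 0.40, adjusted p = 0.0446). In spleen the levels were 7.76, 9.14 and 15.6 CPM against 29.5, 37.2 and 13.9 CPM, and the log2 fold change of 1.31 (SE 0.41) was not called (adjusted p = 0.111). The blood call rested on a small margin and was lost without any 1 of 9 libraries, at adjusted p values of up to 0.141.

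Hpgds, the haematopoietic prostaglandin D synthase, followed another pattern. In blood it was low, at 1.49, 1.18 and 2.03 CPM in intact and 2.62, 2.17 and 3.41 CPM in resected mice, and although the libraries did not overlap the log2 fold change of 0.80 (SE 0.46) did not pass the test (adjusted p = 0.24, 95% interval −0.23 to 1.83). In spleen it was at 10.1, 12.8 and 23.5 CPM and at 61.0, 49.8 and 18.6 CPM. The log2 fold change there was 1.48 (SE 0.45, adjusted p = 0.108), and the lowest resected library, replicate 3, overlapped the intact ones.

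In the leukotriene branch Alox5, which starts the pathway, was at 35.7, 24.7 and 20.3 CPM in intact blood and at 145, 156 and 183 CPM in resected blood, a log2 fold change of 2.58 (SE 0.40, adjusted p = 0.00296). In spleen it was at 16.7, 17.3 and 14.4 CPM and at 28.4, 25.4 and 76.1 CPM, without overlap (log2 fold change 1.42, SE 0.39, adjusted p = 0.0843). Resected spleen replicate 3, with the high neutrophil sum, held the highest value.

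Alox5ap, whose product presents arachidonic acid to 5-lipoxygenase, was the most abundant member per gene length in all 4 groups. It was at 198, 175 and 71.8 CPM in intact blood and at 680, 813 and 1378 CPM in resected blood, a log2 fold change of 2.69 (SE 0.60, adjusted p = 0.0124). In spleen it was at 141, 137 and 101 CPM and at 277, 206 and 915 CPM, again without overlap and with the highest value in replicate 3 (log2 fold change 1.88, SE 0.58, adjusted p = 0.111). With resection both of these genes moved in the same direction as the neutrophil markers, all 12 of which were called higher in resected blood and 2 in resected spleen. Between intact tissues the neutrophil sums were lower in blood, at 144 to 526 against 1330 to 2430 CPM in spleen. The means of Alox5 (26.9 against 16.1 CPM) and Alox5ap (148.5 against 126.6 CPM) were not lower there. The part of neutrophil RNA was not tested.

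The hydrolase Lta4h stood out by its even level. It was at 46.9, 47.6 and 48.7 CPM in intact spleen, at 45.1, 50.7 and 55.1 CPM in resected spleen and at 44.8, 45.5 and 46.6 CPM in resected blood. Intact blood was at 42.0, 43.9 and 105 CPM, the last in the library with the highest T-cell and NK-cell sum. No comparison called it, and the 95% interval of the log2 fold change with resection was −1.15 to 0.18 in blood and −0.59 to 0.74 in spleen.

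Ltc4s, the leukotriene C4 synthase, was at 20.04, 10.6 and 19.9 CPM in intact blood and at 115, 103 and 53.4 CPM in resected blood. The log2 fold change was 2.43 (SE 0.57, adjusted p = 0.016), and it lost the call without replicate 2 of either blood group, at adjusted p values of 0.0508 and 0.0504. In spleen it was hardly present, at 0.274, 0.459 and 0.128 CPM (13, 22 and 6 counts) in intact and 0.490, 0.611 and 2.19 CPM in resected mice (log2 fold change 1.91, SE 0.66, adjusted p = 0.141). The ratio of Ltc4s to Lta4h counts, the pair that shares leukotriene A4 as substrate, was 0.477, 0.242 and 0.189 in intact blood and 2.58, 2.28 and 1.15 in resected blood. The ratio was higher in every resected blood library than in every intact one, whereas in spleen it did not exceed 0.0397. These counts are not scaled to gene length, and Ltc4s is the shorter gene (0.652 against 2.029 exonic kb). Per exonic kb, Ltc4s was above Lta4h already in intact blood replicate 1, at 12.3% against 8.29% of the members' summed level. It was below Lta4h in replicates 2 (8.03% against 10.6%) and 3 (18.9% against 32.2%).

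Between the tissues, 4 members were called in intact mice (7.35% of all features), 2 of them higher in blood (3.86% of features) and 2 lower (3.49%). After resection 7 were called (13.2% of features), 6 higher in blood (6.28%) and 1 lower (6.87%). The libraries did not overlap for 6 members in intact mice (34.5% of features) and for 8 after resection (42.4%).

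**Figure D4:**
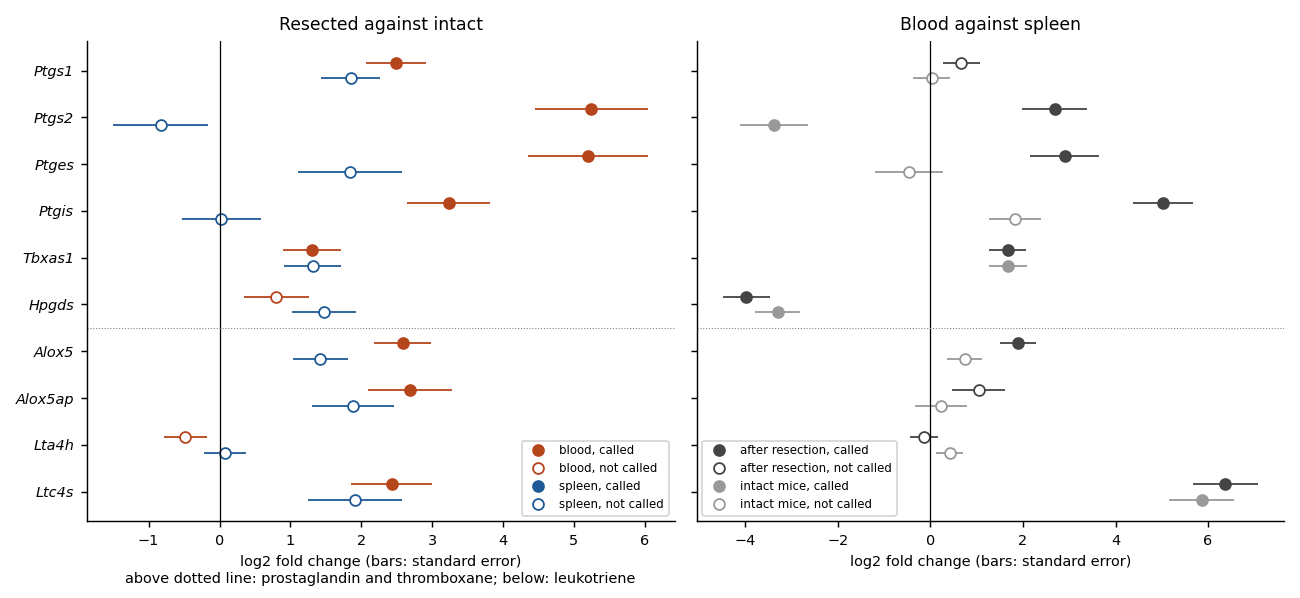
Fitted log2 fold change of each member (horizontal axes, bars for the standard error), for resected against intact in both tissues on the left and for blood against spleen in both states on the right. Filled points were called. In blood 8 points on the left are filled and in spleen 0.

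Ltc4s and Hpgds differed between the tissues in opposite directions. Ltc4s was higher in blood by a log2 fold change of 5.86 (SE 0.71, adjusted p = 0.00198) in intact mice and of 6.37 (SE 0.70, adjusted p = 0.000698) after resection. Hpgds was lower in blood in both states, with log2 fold changes of −3.30 (SE 0.49, adjusted p = 0.00459) and −3.98 (SE 0.50, adjusted p = 0.00128). Each of the 4 calls held without any 1 library, although the value for Ltc4s moved to 6.47 without replicate 2 of intact spleen and, after resection, to 7.45 without replicate 3 of resected spleen. Peritoneal macrophage marker sums were likewise above every splenic library in blood, with 9 of 10 genes called higher in intact mice and 10 of 10 after resection. Red pulp macrophage sums were lower in intact blood than in intact spleen, 5 of 10 genes being called lower. After resection the sums overlapped, with 4 genes called lower and 1 higher. The genes of this list differed: Spic and Vcam1 had means of 3.98 and 3.55 CPM in resected blood against 98.2 and 955 in resected spleen. Adgre1 was at 914 against 169.5 CPM. The part of either cell type in Ltc4s or Hpgds was not tested. Tbxas1 was higher in blood by 1.68 (SE 0.41, adjusted p = 0.0334) and 1.67 (SE 0.41, adjusted p = 0.0199) on the log2 scale. The intact call was lost without any 1 of 6 libraries (adjusted p of up to 0.116), under the replicate block (0.0658) and with only the groups compared (0.0612), and the other was lost without replicate 1 of resected spleen (0.0512) or replicate 2 of resected blood (0.0628). The platelet marker sum, too, was higher in every blood library than in every splenic one, 9 of its 10 genes being called higher in intact and all 10 in resected mice, and the part of platelet RNA in Tbxas1 was not tested.

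Ptgs2 was lower in blood than in spleen in intact mice (log2 fold change −3.39, SE 0.73, adjusted p = 0.0217) and higher after resection (2.69, SE 0.70, adjusted p = 0.0263). The first call was lost with only the groups compared (adjusted p = 0.0512) and without any 1 intact splenic library or replicate 1 of intact blood (0.0548 to 0.0747). The second was lost under the replicate block (0.0501) and without replicate 1 or 2 of resected spleen or replicate 2 or 3 of resected blood (0.0568 to 0.0944). Ptgis was higher in blood by 5.03 (SE 0.64, adjusted p = 0.00132) after resection, against 1.82 (SE 0.56, adjusted p = 0.073) in intact mice, and the first value was 5.91 without replicate 2 of resected spleen. Ptges was called higher in blood after resection (2.90, SE 0.76, adjusted p = 0.0257), as was Alox5 (1.90, SE 0.39, adjusted p = 0.00973). Neither was called in intact mice, and for neither was the change between the states called (adjusted p = 0.179 and 0.3), although DESeq2 called that of Ptges (0.0201), and that of Alox5 was called without replicate 3 of resected spleen (0.0483). The call of Ptges was lost with only the groups compared (adjusted p = 0.0627) and without replicate 1 or 2 of resected spleen (0.086 and 0.0941) or replicate 3 of resected blood (0.089), where its value was 1.63. That of Alox5 held, with a value of 2.68 without replicate 3 of resected spleen. Ptgs1 and Alox5ap were called in neither state with all libraries. Alox5ap was called higher in blood after resection without replicate 3 of resected spleen (2.09, adjusted p = 0.0184). It was also called there with 2 or 3 libraries that stood apart left out (adjusted p = 0.00308 and 0.00227).

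Per gene length, the order of the members differed between the groups. In intact spleen Alox5ap led with a mean of 94.0 CPM per exonic kb, then Lta4h with 23.5, Ptgs2 with 13.6 and Ptgs1 with 10.1, of which the last 2 overlapped. In resected blood Alox5ap was at 711 and Ltc4s followed at 139. Next came Ptgs1, Alox5 and Ptgs2 at 57.9, 57.2 and 49.4, which overlapped each other. The libraries of Ltc4s (from 81.85) also overlapped those of Ptgs2 (up to 85.96). The lowest mean was that of Ptges in both intact groups (0.333 in spleen and 0.242 in blood), where its libraries overlapped those of Ltc4s in spleen and those of Hpgds and Ptgs2 in blood. In resected blood it was that of Hpgds (0.787), below all others without overlap. In resected spleen Ptgis at 1.17, Ptges at 1.19 and Ltc4s at 1.68 were lowest and overlapped.

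**Figure D5:**
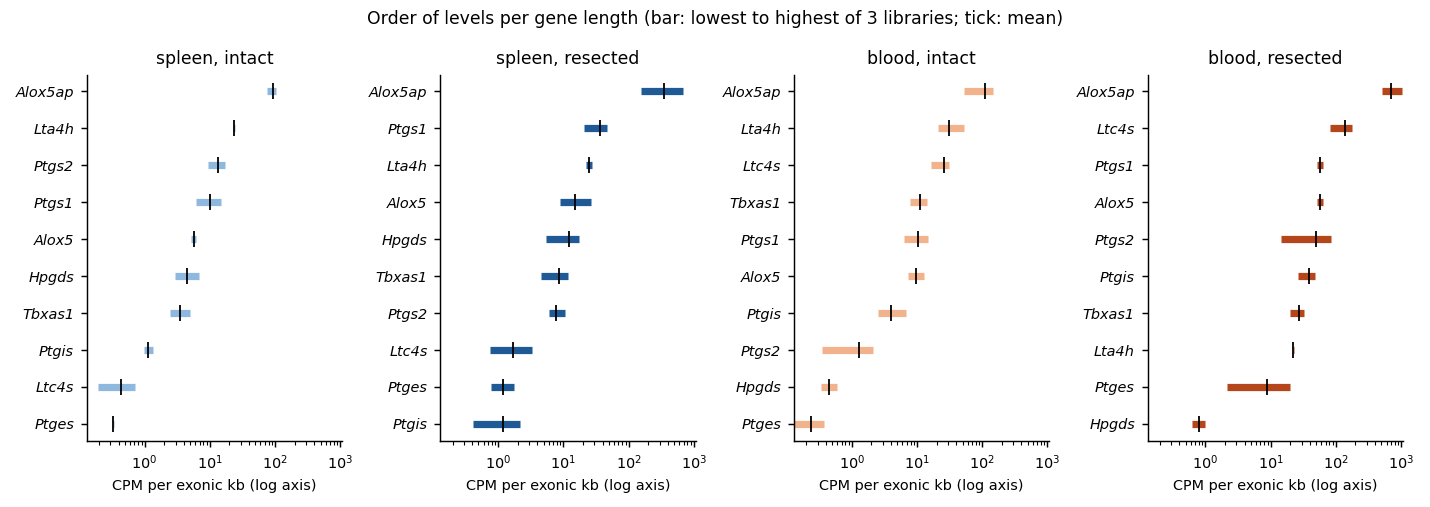
Level per gene length (horizontal axes, CPM per exonic kb, log scale) of the members, sorted by mean within each group. Bars run from the lowest to the highest of 3 libraries. Alox5ap is at the top of every panel, while Ltc4s is second in resected blood and near the bottom in both splenic groups.

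The branches were compared by the median log2 fold change of their members. For resection in blood the median was 2.86 in the prostaglandin and thromboxane branch and 2.51 in the leukotriene branch, against −0.10 over all features. For resection in spleen the medians were 1.395 and 1.65, against 0.05. Blood against spleen gave −0.22 and 0.58 in intact mice, against −0.02, and 2.18 and 1.47 after resection, against −0.14. The differences between branches were 0.35, −0.26, −0.79 and 0.71 and carry no test. Within the prostaglandin and thromboxane branch alone, the values for blood ran from 0.80 to 5.24. With resection in blood, 1 member of each branch was not called, Hpgds and Lta4h.

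Other genes of the pathway were followed by list. Of 13 tested genes listed for arachidonate release or reacylation, 6 were called higher in resected blood and 0 in resected spleen. The list holds enzymes of both directions, so its count does not measure release. Over all features, 7.8% were called higher in blood and 1.38% were called in spleen. The counts of the lists that follow stand against the same shares. Pla2g4a, the cytosolic phospholipase A2 that supplies both branches, was at 7.18, 5.93 and 4.22 CPM in intact blood and at 28.3, 37.03 and 40.5 CPM in resected blood (log2 fold change 2.61, SE 0.24, adjusted p = 0.000428). The other 5 were Pla2g7 (log2 fold change 3.33), Lpcat2 (2.81), Mboat7 (1.31), Acsl4 (1.14) and Lpcat3 (1.07), of which the last 4 take part in reacylation or activation of fatty acids. Of 10 other prostanoid enzymes and transporters 3 were higher in resected blood and 0 lower, namely the prostaglandin transporter Slco2a1 (2.56), Prxl2b (1.70) and the prostaglandin reductase Ptgr1 (1.35). Slco2a1 had 5, 8 and 7 counts in the intact blood libraries, so its folds against that group are imprecise. Hpgd, the main prostaglandin-inactivating dehydrogenase, was lower in blood than in spleen after resection (log2 fold change −4.57, SE 0.92, adjusted p = 0.00888).

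Among 12 other lipoxygenase and leukotriene genes 4 were higher in resected blood. Alox15, the 12/15-lipoxygenase, was at 331, 103 and 142 CPM in intact blood and at 2760, 2949 and 2042 CPM in resected blood (log2 fold change 3.75, SE 0.62, adjusted p = 0.00356), against 1.48 to 10.1 CPM over the splenic libraries. It is also one of the peritoneal macrophage markers. Ggt1 (3.75) and Dpep2 (2.82), of families that process leukotriene C4, were higher too. In resected blood Ggt1 was at 12.2, 14.3 and 96.65 CPM, the last in replicate 3, the library with the highest neutrophil sum. Ephx2, a soluble epoxide hydrolase, was the last of the 4, with 3 counts or fewer in each intact blood library, so that no fold is given. Alox12, the platelet-type lipoxygenase, was higher in blood than in spleen in intact mice (4.29, SE 0.65, adjusted p = 0.00496) and after resection (4.73, SE 0.66, adjusted p = 0.00192).

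Receptors of both branches were followed as well. Of 7 tested prostanoid receptors 1 was called in blood, a share close to the 13.9% of all features called, namely the thromboxane receptor Tbxa2r, which fell by 2.19 on the log2 scale (SE 0.40, adjusted p = 0.00535) from 6.41, 7.84 and 14.7 CPM to 2.90, 2.17 and 1.27 CPM. The prostaglandin E2 receptors Ptger1 and Ptger4, at means of 51.7 and 46.2 CPM in resected blood, had log2 fold changes of 0.06 and −0.22 (adjusted p = 0.886 and 0.597). Of 4 tested leukotriene and lipoxin receptors 2 were called higher in blood: Ltb4r1, the high-affinity leukotriene B4 receptor (2.01, SE 0.62, adjusted p = 0.0436), and Fpr2, which binds lipoxin A4 and formyl peptides (4.70, SE 0.81, adjusted p = 0.00417). Both were highest in replicate 3 of resected blood, at 176 and 446 CPM. The cysteinyl leukotriene receptor Cysltr1 was higher in blood than in spleen in intact mice (2.43, SE 0.56, adjusted p = 0.0274) and after resection (3.21, SE 0.58, adjusted p = 0.00568). In spleen 0 genes of these 5 lists were called with resection.

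Members of these lists were also called between the tissues, where 7.35% of all features were called in intact mice and 13.2% after resection. Of the genes listed for arachidonate release or reacylation, 1 was higher in blood than in spleen in intact mice and 4 were lower. The higher one was Faah, which hydrolyses anandamide (log2 fold change 1.31). The lower ones were Pla2g2d (−6.21), the monoacylglycerol lipase Mgll (−3.34), Pla2g15 (−1.87) and Pla2g4a (−1.02). Pla2g2d had 1, 11 and 3 counts in the intact blood libraries, so its fold is imprecise. After resection 2 were higher in blood, Pla2g7 (1.51) and Acsl4 (1.13), and 4 were lower, Pla2g4c (−5.004), Pla2g2d (−3.94), Mgll (−3.21) and Pla2g15 (−1.77). In resected blood Pla2g4c had 5, 6 and 5 counts and Pla2g2d 1, 8 and 3, so these 2 folds are imprecise as well. Pla2g4a was thus called lower in blood in intact mice and was not called after resection. Of the prostanoid enzymes and transporters, Ptgr1 was higher in blood in both states (1.299 and 1.48), Slco2a1 was lower in intact mice (−2.37) and Hpgd was lower after resection. Of the other lipoxygenase and leukotriene genes, Alox12 and Alox15 were higher in blood in both states, Alox15 by 5.09 and 9.90, and Dpep2 was higher after resection (2.46). Ephx2 was lower in blood in both states and Mgst3 was lower after resection (−2.13). Among receptors, Cysltr1 was higher in blood in both states and the prostacyclin receptor Ptgir after resection (2.08, SE 0.64, adjusted p = 0.0463).

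Over the 12 libraries, the genes whose log2 CPM most resembled that of Ptgs2 among 12748 searched were Il1b (Pearson r = 0.98), Il1bos (0.95) and Ccl3 (0.95). Il1bos is antisense to Il1b. For Alox5 they were Fcor, App and Lamp2, each at 0.99. These values describe libraries of 4 groups that share the same depth and makeup differences.

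Without the 3 libraries that stood apart, 8 members were called with resection in blood (12.2% of features), 3 in spleen (4.04%), 6 between tissues in intact mice (10.3%), 8 after resection (17.6%) and 2 in the difference of the responses (1.95%). The 3 called in spleen were Ptgs1 (log2 fold change 2.13, adjusted p = 0.0231), Tbxas1 (1.63, adjusted p = 0.0281) and Hpgds (1.84, adjusted p = 0.0289). With 2 of these libraries left out, resected blood replicate 3 being kept, the counts were 8, 3, 6, 8 and 2, against 14.2%, 2.59%, 8.74%, 20.3% and 1.71% of features. The count in blood was 8 with and without these libraries.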

How the data were processed

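RNA-seq was run on 12 libraries of CD115+ cells, 3 per group, each from 5 pooled male C57BL/6 mice, with groups and replicate numbers taken from the labels. The authors deposited estimated counts per library with decimals and without scaling, 67088 rows each. The submitters' processing notes name STAR and GRCm39, and the counting tool, annotation and versions are not given in the sources used here. The labels name a strand-specific DNBSEQ library, while the methods name an Illumina instrument.

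Unassigned rows (1.75% to 4.33% of counts) were left out. Of 40274 accession rows 25340 were matched to a symbol through the RefSeq table of GRCm38.p6 and 14934 kept their accession, and counts were summed per gene and rounded to whole numbers. Ltc4s was summed over 3 rows, the other members had 1 each. Exonic length was the union of exons in GENCODE vM21 (GRCm38), so levels per length mix builds by gene name. No coordinates were taken from the count files.

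In R 4.3.3 with edgeR 4.0.16, features kept by filterByExpr were scaled with TMM factors (0.661 to 1.26) and tested by robust quasi-likelihood fits over all 12 libraries and 4 groups, without covariates. The test the authors used for these data is not given in the sources used here. Calls needed both a Benjamini-Hochberg adjusted p below 0.05 and a log2 fold change beyond 1 in either direction. Standard errors were derived from the quasi-likelihood F statistic, intervals are 95%, and log2 CPM used a prior count of 2. The counting limit was 3 counts per library, which covers counting error only. The fit was tested on simulated data with less spread between libraries than these data had, and only well-counted genes were changed there. That check therefore does not cover members with low counts. Replicates of a group differed by more than counting noise and were each counted. How reads shared by close paralogs or overlapping genes were counted is not given in the sources used here, so Il1b and Il1bos are uncertain.

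The text names all members, the other listed eicosanoid genes that were called, receptors, and for Ptgs2 and Alox5 the 3 genes of highest Pearson correlation among those with a mean of at least 1 CPM. The members, lists and tests were chosen with earlier results of these data known. Marker lists of dendritic cells, B cells, eosinophils, basophils and mast cells, endothelial and mesothelial cells, hepatocytes and erythroid cells were also followed. With resection in blood 2 of 10 basophil and mast cell genes were called higher, as were 0 genes of the dendritic, B-cell, eosinophil, endothelial and erythroid lists, and no hepatocyte gene passed the filter. With resection in blood 8 of 10 red pulp macrophage genes were called higher, 3 of 7 T-cell and NK-cell genes lower, and of 10 monocyte genes 2 higher and 2 lower. Alternatives were DESeq2 1.42.0, RLE factors, no filter, at least 10 counts in every library, haemoglobin genes left out, rows as deposited, the replicate number as a block, only the groups compared, the mean in place of the median of a branch, and each library left out. Leaving out 2 and then 3 libraries that stood apart was added after seeing the data. A planned comparison of protein sequences was not run. The authors' other experiments were not analysed here.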

Additional observations from a re-analysis of the deposited data

Results flagged for a closer look

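Ptgs2 was called when the difference between the responses to resection in blood and in spleen was itself tested. Its log2 fold change was higher in blood than in spleen by 6.07 (SE 1.02, adjusted p = 0.047, edgeR), with 3 libraries per group. All 3 resected blood libraries lay above all intact ones, while the splenic groups overlapped. The value lies close to the threshold, and 0 members were called in this test under 5 of the alternatives described next. DESeq2 called Ptgis (3.24, adjusted p = 0.0024) and Ptges (3.40, adjusted p = 0.0201) besides Ptgs2. Alox5 was called without replicate 3 of resected spleen (1.84, adjusted p = 0.0483) and with 2 or 3 libraries that stood apart left out (adjusted p = 0.0339 and 0.042). With 3 libraries per group, no formal outlier test of single gene values was run.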

How the results depend on the processing

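With resection in blood the count of called members was 6 to 8 under every alternative run. In spleen, where 0 were called, DESeq2 called 6, a minimum of 10 counts in every library called 1, leaving out 1 library called 0 to 1, and leaving out 2 or 3 libraries that stood apart, alternatives chosen after seeing the data, called 3. Between tissues in intact mice 2 were called with only the groups compared, and 2 to 5 without 1 library. After resection 4 to 8 were called without 1 library, 4 of them without replicate 1 of resected spleen. For the difference of responses 0 members were called with RLE factors, no filter, haemoglobin genes left out, rows as deposited or the replicate block, 3 with DESeq2, 2 with 2 or 3 libraries left out and 0 to 1 without 1 library.

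The branch differences were unstable. With the mean in place of the median they were 1.24 for resection in blood, −2.41 between tissues in intact mice and −0.80 after resection. With 2 or 3 libraries left out the difference was 0.69 for resection in spleen, and between tissues after resection it was −0.11 with 2 and −0.32 with 3. Without 1 library it ran from −0.76 to 0.69 in spleen and from −0.11 to 1.11 between tissues after resection.

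Members changed direction only in comparisons in which they were not called. Without 1 library the log2 values of Lta4h ran from −0.65 to 0.08 for resection in blood, from −0.05 to 0.67 between tissues in intact mice, from −0.12 to 0.03 after resection and from −0.71 to 0.006 for the difference of responses. Those of Ptgis in spleen ran from −0.76 to 0.44, of Ptgs1 between intact tissues from −0.26 to 0.51, and for the difference of responses of Ltc4s from −0.001 to 1.49 and of Tbxas1 from −0.36 to 0.30. With 2 and 3 libraries left out, Lta4h was at 0.083 and 0.071 in blood, −0.048 and −0.047 between intact tissues, 0.026 and 0.016 after resection and 0.074 and 0.063 for the difference. The difference of Tbxas1 was 0.021 with DESeq2 and RLE factors, 0.011 with at least 10 counts, 0.01 with rows as deposited and 0.116 with the replicate block, which also gave −0.171 for Ptgis in spleen and −0.046 for Ptgs1 between intact tissues.

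With the replicate block 7 members were called with resection in blood, Tbxas1 being lost (adjusted p = 0.0672). Whether same-numbered libraries of blood and spleen came from the same mice was not settled. Of 18 same-numbered pairs, 2 had a correlation of their deviations above 0.1 (range −0.032 to 0.145). Both set resected spleen against resected blood, at 0.109 for replicate 2 and 0.145 for replicate 3. Replicate 1 of these groups was at 0.022. Pairs of an intact with a resected library cannot share mice, so they do not bear on this. The cause of these changes was not tested. Pools of 5 mice, 3 per group, and counts of 6 to 22 for Ltc4s in intact spleen limit the precision.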
